A study of Mus musculus with 11 samples.

Results

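The proteasome genes were taken as every annotated symbol that begins with Psma, Psmb, Psmc, Psmd or Psme followed by a digit, with the probe of highest mean signal over the 11 arrays standing for each gene. Of 19057 genes with a named probe, 45 symbols met this rule. Psmc3ip and Psme3ip1 are partner proteins and not subunits, so they were counted apart, which left 43 proteasome genes. Psmb8, Psmb9 and Psmb10 were treated separately as the immunoproteasome. Detection above background on at least 2 arrays was required for testing, and 39 of the 43 genes met it.

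The study profiled total RNA of flow-sorted cells from endosteal bone marrow of C57BL/6 mice on Illumina whole-genome bead arrays. Haemopoietic stem cells (HSC) were sorted as LSK CD150+ CD48- and gave 2 arrays. The other cells were positive for a fluorescein-tagged AGE reagent, and the labels call them scavenger endothelial cells (SEC). They were divided by 2 markers into a CD31+ B220+ fraction, a CD31+ B220- fraction and a CD31- B220- fraction, with 3 arrays each. CD31 is an endothelial adhesion molecule that blood cells also carry, and B220 is a form of CD45 found on B cells and plasmacytoid dendritic cells. No age and no treatment is given for any group. For the fraction negative for both markers, the source name opens with HSC while title and cell type say SEC, and the title was taken as correct. Some RNA samples were pooled before labelling, and nothing says that numbered replicates came from separate animals, so the p-values measure the spread between these samples, which may be technical.

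The proteasome degrades proteins tagged with ubiquitin. Its core is a barrel of alpha rings, which form the gate, around beta rings, which hold the cutting sites. A cap of ATPase and non-ATPase subunits recognises and unfolds the substrate, and separate activators can open the gate instead. In cells exposed to interferon and in most cells of the blood system, the cutting subunits Psmb6, Psmb7 and Psmb5 are exchanged for Psmb9, Psmb10 and Psmb8. The resulting immunoproteasome favours peptides that fit MHC class I molecules.

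The start-site sequences of 4 cutting subunits are shown because the results turn on the contrast between the immunoproteasome and the subunits it replaces. Each window runs from 250 bases before to 50 bases after the start site and comes from RefSeq, build GRCm38.p6. The motifs searched on both strands of these windows were the interferon-stimulated response element (ISRE, GAAA, any 2 bases, GAAA), the gamma-activated site (GAS, TTCNNNGAA) and the antioxidant response element (ARE, TGACNNNGC), where N is any base. Capitals mark a match. The Psmb8 window is chr17:34197945-34198244 on the plus strand, and the Psmb9 window is chr17:34187281-34187580 on the minus strand. The Psmb5 window is chr14:54617946-54618245 on the minus strand, and the Psmb6 window is chr11:70525107-70525406 on the plus strand.
Psmb8: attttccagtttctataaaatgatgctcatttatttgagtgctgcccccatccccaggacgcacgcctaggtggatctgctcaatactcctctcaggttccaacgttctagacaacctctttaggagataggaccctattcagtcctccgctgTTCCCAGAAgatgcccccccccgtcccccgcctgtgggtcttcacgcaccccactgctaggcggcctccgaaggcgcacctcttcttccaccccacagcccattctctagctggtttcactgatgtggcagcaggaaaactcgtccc
Psmb9: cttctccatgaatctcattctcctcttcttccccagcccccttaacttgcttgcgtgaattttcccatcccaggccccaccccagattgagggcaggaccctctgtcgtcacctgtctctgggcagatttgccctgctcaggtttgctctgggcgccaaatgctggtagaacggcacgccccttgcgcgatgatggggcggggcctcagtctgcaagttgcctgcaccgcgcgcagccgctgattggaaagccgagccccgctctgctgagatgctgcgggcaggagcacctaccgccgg
Psmb5: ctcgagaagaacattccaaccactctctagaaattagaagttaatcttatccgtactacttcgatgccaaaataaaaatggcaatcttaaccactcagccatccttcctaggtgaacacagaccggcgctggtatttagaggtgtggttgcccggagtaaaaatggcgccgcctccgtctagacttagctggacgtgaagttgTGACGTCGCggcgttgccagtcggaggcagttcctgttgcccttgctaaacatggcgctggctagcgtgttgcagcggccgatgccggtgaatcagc
Psmb6: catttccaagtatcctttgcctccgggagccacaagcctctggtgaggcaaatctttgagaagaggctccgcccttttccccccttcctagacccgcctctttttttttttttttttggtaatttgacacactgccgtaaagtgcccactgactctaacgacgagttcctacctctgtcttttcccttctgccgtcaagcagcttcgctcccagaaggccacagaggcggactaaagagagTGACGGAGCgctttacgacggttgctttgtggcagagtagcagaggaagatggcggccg

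The Psmb8 window held a GAS match at positions -97 to -89 from the start site. The Psmb5 and Psmb6 windows each held an ARE match, at -47 to -39 and -9 to -1. Psmb7 had no window and could not be searched. The Psmb9 window, and the Psmb10 window on chromosome 8, held none of these letters. Of all 32851 mouse windows, 3.44% held an ISRE match, 8.3% a GAS match and 12.4% an ARE match. Windows were found for 36 of the 43 proteasome genes, 39 windows in all. Among them 4 held an ISRE match (Psmb3, Psmd4, Psmd9 and Psme1), 2 a GAS match (Psmb8 and Psmd2) and 6 an ARE match (Psmb5, Psmb6, Psmc6, Psmd12, Psmd9 and Psme4). No 2 matches overlapped. These matches describe letters and not binding. In the RefSeq gene order, Psmb9, Tap1, Psmb8 and Tap2 are consecutive neighbours on chromosome 17, and Psmb5 lies next to Psmb11.

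Before normalization the upper quartile of probe signals was 376.8 to 450.5 on the HSC arrays and 145.9 to 211.6 on the arrays of the fractions, so brightness coincided with the HSC sort. The HSC arrays detected 17557 to 17755 probes each and the others 15063 to 17418. Signals below are normalised log2 intensities, and differences are between group means of log2 values. CD31- B220- replicate 3 stood closer to the CD31+ B220- arrays (mean Pearson r 0.914 across genes) than replicates 1 and 2 did (0.887 each). Of the 84 called differences of named genes that involve the CD31- B220- fraction, 80 were kept without replicate 3, and their log2 size became 0.742 to 1.36 times that with it. The 4 lost calls were Psma7 (adjusted p = 0.0533) and Tapbp (0.0587) against HSC, Psme2 in CD31+ B220+ (0.0732) and Ube3c in CD31+ B220- (0.052). In bulk RNA, fewer cells of a type and less RNA per cell cannot be told apart.

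Markers of other cells moved with the sorts, as measured by the summed normalised signal of each list on each array. Erythroid markers (6 of 8 with a probe) summed to 47175 to 59275 in CD31- B220-, against 7880 to 20165 over the other groups. Stromal markers (8 of 8) summed to 6091 to 9007 in CD31- B220-, against 217.4 to 854.4 elsewhere, with Lepr and Kitl undetected there. B lineage markers (6 of 8) summed to 41177 to 42531 in CD31+ B220+, 5055 to 8892 in CD31+ B220-, 889 to 983 in HSC and 513 to 754 in CD31- B220-. Plasmacytoid dendritic cell markers (7 of 8) reached 21114 to 21916 in CD31+ B220+ and at most 5111 elsewhere. This list did not move as one: of 6 tested, 3 were called higher and 1 lower in CD31+ B220+ than in CD31+ B220-. Ly6d had means of 13.81 and 9.71 in these 2 fractions, and Siglech 8.69 and 8.91. Both B220- fractions held macrophage and monocyte markers (6 of 8) at 23999 to 28067, against at most 2364 in HSC and CD31+ B220+. Neutrophil markers (8 of 8) summed to 56340 to 62180 in CD31+ B220- and 21880 to 54756 in CD31- B220-, against 1416 to 7628 in the other groups. T and NK cell markers (8 of 8) reached 3090 to 5837 in CD31+ B220- and at most 866 elsewhere. HSC markers (7 of 8) summed to 21811 to 22804 in HSC and at most 2532 in the fractions. Endothelial markers (8 of 8) summed to 3296 to 3907 in HSC and 1569 to 2718 over the fractions. Cdh5, Tek, Tie1, Emcn and Stab2 were undetected on every CD31- B220- array, as were Tek, Tie1, Emcn and Stab2 in CD31+ B220+. Thus 5 and 4 of the 8 defining endothelial markers were undetected on all arrays there, against 0 of 8 in CD31+ B220-. In CD31+ B220- 5 of 8 were detected on every array, with Tek and Kdr on 1 array and Tie1 on 2. Cdh5 and Kdr were undetected in HSC. Pecam1, which encodes CD31, and Stab1 were detected on all arrays of CD31+ B220+, and Stab1 on all arrays of CD31- B220-. The part of these cells in the proteasome results was not tested.

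In CD31+ B220+ against CD31- B220-, 16 of the 39 proteasome genes tested (41%) were lower and 5 (12.8%) higher at a limma Benjamini-Hochberg adjusted p under 0.05, against 22.5% lower and 22.3% higher of all genes tested; the median log2 difference was -0.44 for the proteasome genes and 0.02 for all genes. Of the 5 higher genes, 3 were the immunoproteasome. In CD31+ B220+ against CD31+ B220-, 6 were lower (15.4%) and 1 higher (2.56%), against 18.5% and 16.7% of all genes, with medians of -0.20 and 0.01. In CD31+ B220- against CD31- B220-, 4 were higher and 4 lower (10.3% each), against 16% and 12.1% of all genes, with medians of -0.08 and 0.07. The 16 lower became 10 without CD31+ B220+ replicate 1 or CD31- B220- replicate 2 and remained 16 in number without CD31- B220- replicate 3. The 6 lower became 2, with 2 higher (against 13.3% of all genes), without CD31+ B220+ replicate 2. They became 2 without CD31+ B220- replicate 1, and 3 without CD31+ B220+ replicate 1 or CD31+ B220- replicate 3. The 4 lower became 1 without CD31+ B220- replicate 3 or CD31- B220- replicate 1 and 7 without CD31- B220- replicate 3. Over the same omissions the shares of all genes lower were 20.3% to 22.2%, 15.3% to 16.9% and 9.95% to 12.7%.

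Against HSC, 5 genes were higher and 5 lower in CD31+ B220+ (all genes 18.4% and 26.9%), 5 higher and 3 lower in CD31+ B220- (17.5% and 25%), and 13 higher and 6 lower in CD31- B220- (20.6% and 29.5%). The median differences were -0.03, 0.23 and 0.29, against -0.06, -0.09 and -0.08 for all genes. These 3 comparisons share the HSC arrays, and their direction rests on the scaling. With each array scaled to its median instead, the median of all genes moved to -1.22, -1.14 and -1.08. No proteasome gene was then called higher, against 6.66%, 7.77% and 9.39% of all genes. Of the 39 tested, 32, 22 and 15 were called lower, against 67.9%, 65.5% and 62.3% of all genes. Relative to the median of all genes, the proteasome median was then 0.09, 0.35 and 0.71, compared with 0.03, 0.32 and 0.38 after quantile normalization. Without CD31- B220- replicate 3, 14 were higher and 6 lower in that fraction, against 20.6% and 29% of all genes. Leaving out HSC replicate 1 lowered the 13 to 6 (against 15.3% of all genes). It left 3 higher and 2 lower in CD31+ B220+ (against 12.9% and 18.3%) and 2 higher in CD31+ B220- (against 11.7%).

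Over the 4 groups together, 25 of the 39 genes differed by limma's F-test (64.1%, against 69% of all genes). The highest group mean lay in CD31- B220- for 20 genes, in HSC and in CD31+ B220- for 7 each and in CD31+ B220+ for 5. The lowest lay in HSC and in CD31+ B220+ for 15 each, in CD31- B220- for 6 and in CD31+ B220- for 3. No such counts were made over all genes, so these describe the members alone. The place of HSC in them rests on the scaling, as above.

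**Figure D1:**
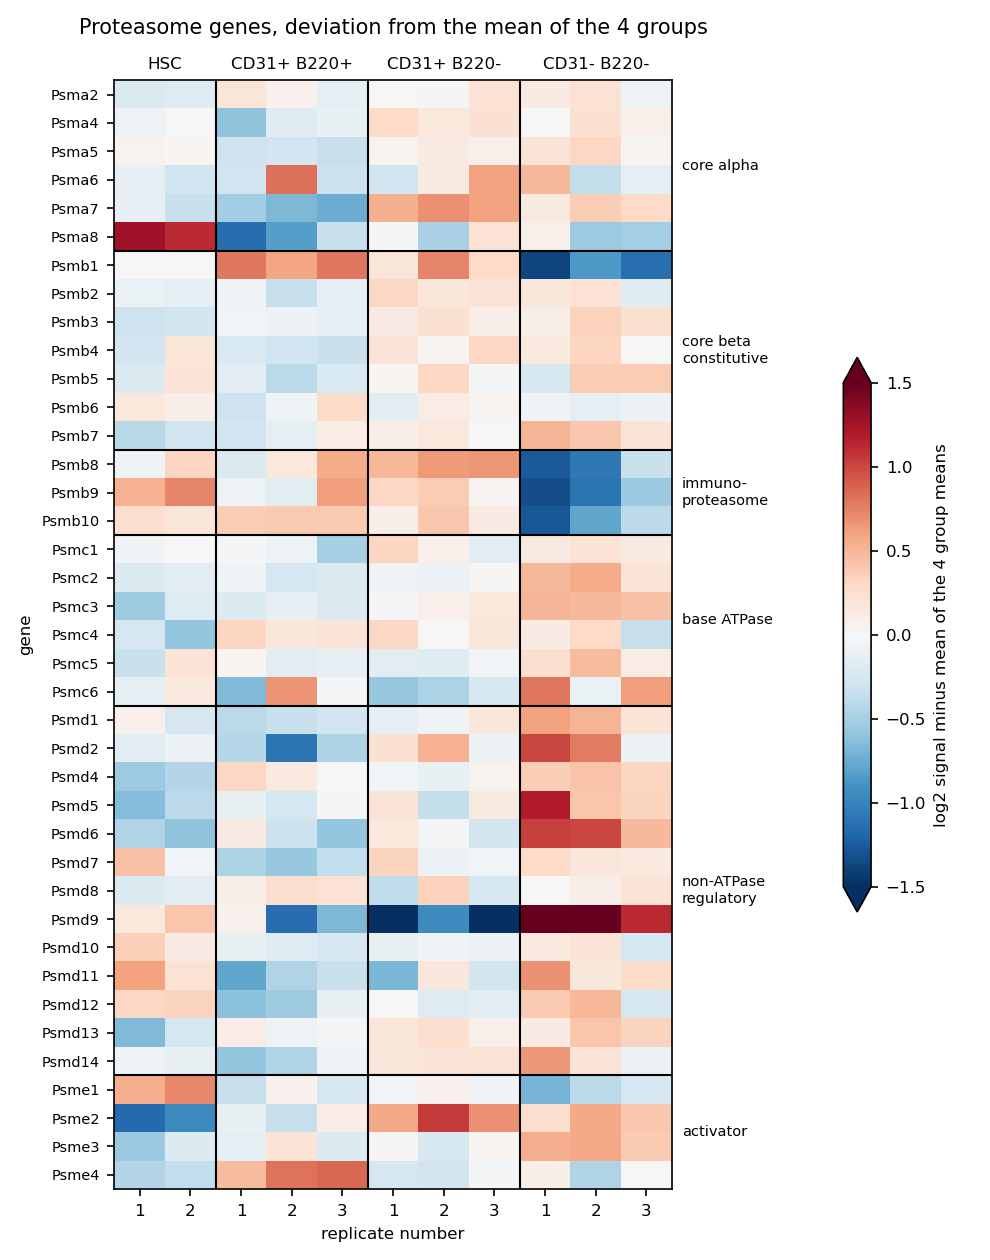
Deviation of each tested proteasome gene (vertical axis, grouped by class) from the mean of its 4 group means, in log2 units shown by colour and capped at 1.5, on each of the 11 arrays (horizontal axis, by group and replicate number). Psmb1, Psmb8, Psmb9 and Psmb10 are blue on the CD31- B220- arrays, where most cap subunits are red. The HSC columns depend on the scaling. With each array scaled to its median, no proteasome gene was called higher than in HSC, against 6.66% to 9.39% of all genes.

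The immunoproteasome genes were lower in the CD31- B220- fraction than in each of the other groups. Psmb8, which supplies the chymotrypsin-like site of the immunoproteasome, read 10.25, 10.45 and 11.18 in CD31- B220-, and 12.01, 12.16 and 12.18 in CD31+ B220-. In CD31+ B220+ it read 11.30, 11.67 and 12.08, and in HSC 11.45 and 11.83. Every CD31- B220- array was thus below every other array, with replicate 3 the nearest. Psmb9, which takes the place of Psmb6, read 9.49, 9.73 and 10.27 in CD31- B220- and 10.86, 11.14 and 11.21 in CD31+ B220-. It read 10.66, 10.75 and 11.45 in CD31+ B220+ and 11.35 and 11.55 in HSC, so the CD31- B220- arrays again formed the low end with no overlap. Psmb10, which takes the place of Psmb7, read 10.12, 10.61 and 11.003 in CD31- B220- and lay between 11.49 and 11.80 on the other 8 arrays.

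Against CD31- B220-, signals in CD31+ B220+ were 2.08-fold higher for Psmb8 (log2 difference 1.05 ± 0.26 SE, limma adjusted p = 0.00668), 2.18-fold for Psmb9 (1.12 ± 0.26, adjusted p = 0.00368) and 2.30-fold for Psmb10 (1.20 ± 0.21, adjusted p = 0.000679). The same genes were 2.81-fold, 2.36-fold and 2.03-fold higher in CD31+ B220- (1.49 ± 0.26, 1.24 ± 0.26 and 1.02 ± 0.21, limma adjusted p = 0.0014, 0.00363 and 0.00375). In HSC they were higher by 2.02-fold, 3.07-fold and 2.05-fold than in CD31- B220- (limma adjusted p = 0.0137, 0.000637 and 0.00362). For comparison, of all 11367 genes tested, 26.8% had every CD31+ B220+ array above every CD31- B220- array, 23.1% had every CD31+ B220- array above, and 39% had every CD31- B220- array below both HSC arrays. Without CD31- B220- replicate 3 the median of the 3 genes' log2 differences grew from 1.12 to 1.33 for CD31+ B220+ and from 1.24 to 1.44 for CD31+ B220-, and that against HSC went from -1.03 to -1.28. All 6 calls between fractions were kept under each of the 21 alternatives run for them. Against HSC, the Psmb8 call was lost without HSC replicate 2 (adjusted p = 0.103) and Psmb9 and Psmb10 kept theirs throughout.

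Among HSC, CD31+ B220+ and CD31+ B220- no immunoproteasome gene was called. The log2 differences there ran from -0.50 (Psmb9, CD31+ B220+ minus HSC, limma adjusted p = 0.18) to 0.47 (Psmb8, CD31+ B220- minus HSC, limma adjusted p = 0.224). A second Psmb8 probe had group means of 8.48 in HSC, 8.85 in CD31+ B220+, 9.13 in CD31+ B220- and 7.73 in CD31- B220-. The second Psmb10 probe had 11.12, 11.67, 11.57 and 10.46 in the same order. Both were thus lowest in CD31- B220- too, and Psmb9 had 1 probe.

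None of the cutting subunits that the immunoproteasome genes replace was called lower in CD31- B220-. Psmb5, the constitutive chymotrypsin-like subunit, read 9.29, 9.90 and 9.91 in CD31- B220-, 9.52, 9.56 and 9.85 in CD31+ B220-, 9.13, 9.30 and 9.36 in CD31+ B220+ and 9.32 and 9.74 in HSC. Its groups overlapped in 5 of the 6 comparisons and none was called. Psmb6, the caspase-like subunit, stayed between 11.15 and 11.74 on all 11 arrays and was called in no comparison. Psmb7, the trypsin-like subunit, read 12.03, 12.24 and 12.34 in CD31- B220-, 11.84, 11.94 and 11.995 in CD31+ B220-, 11.54, 11.68 and 11.94 in CD31+ B220+ and 11.42 and 11.54 in HSC. CD31- B220- was thus its highest group. Psmb7 was 1.65-fold higher there than in HSC (limma adjusted p = 0.00677) and 1.40-fold higher than in CD31+ B220+ (limma adjusted p = 0.0342). The call against HSC was lost under median scaling and without HSC replicate 1. The call against CD31+ B220+ was kept in 15 of 21 alternatives and lost with the replicate block, with the compared groups alone and without replicate 1 or 2 of either fraction.

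**Figure D2:**
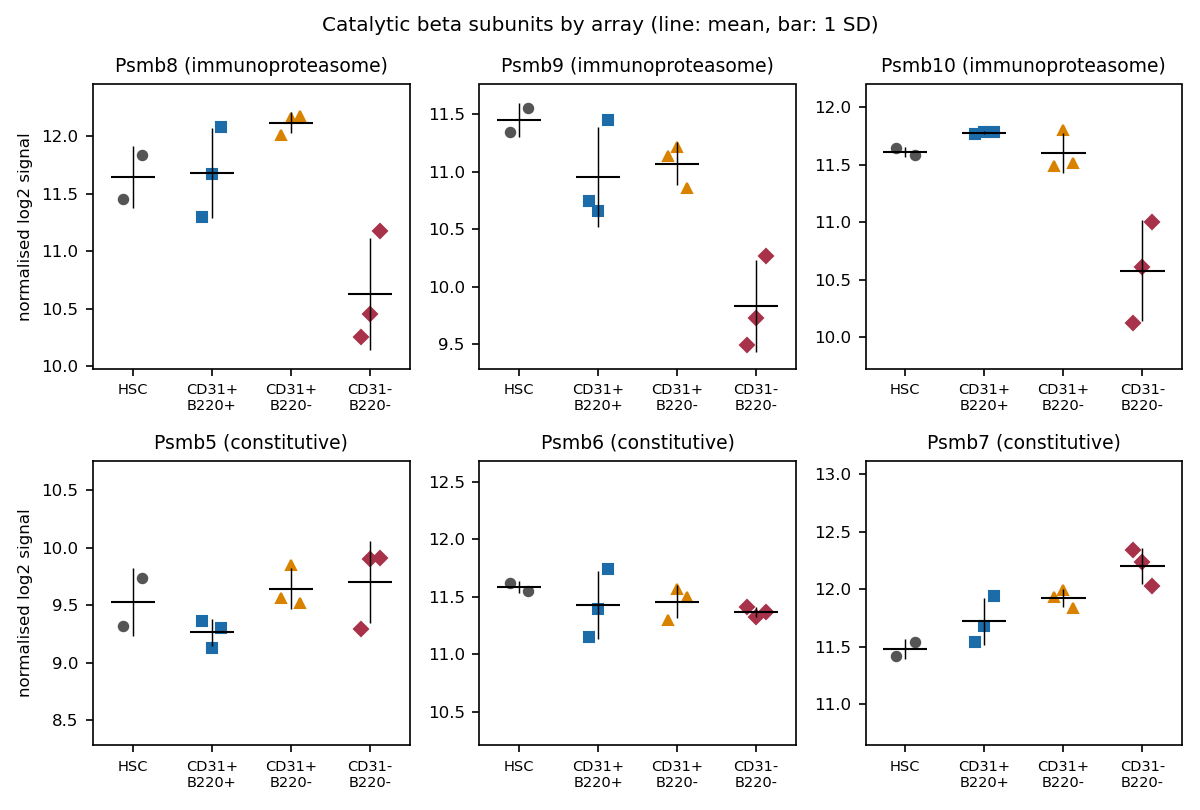
Normalised log2 signal (vertical axis) of the immunoproteasome subunits (top) and of the constitutive subunits that they replace (bottom) in the 4 sorted groups, with 1 point per array, a line at the group mean and a bar of 1 SD (n = 2 for HSC, n = 3 for the others). Psmb8, Psmb9 and Psmb10 are lowest on all 3 CD31- B220- arrays, and every panel spans the same height of log2 units.

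The difference between the 2 subunits of each pair was also taken within each array, where array brightness cancels; only its change between groups is read. The Psmb8 minus Psmb5 difference was 0.55, 0.96 and 1.27 on the CD31- B220- arrays and between 1.94 and 2.78 on the other 8. Psmb9 minus Psmb6 was -1.92, -1.60 and -1.10 in CD31- B220- and between -0.74 and 0.004 elsewhere. Psmb10 minus Psmb7 was -2.22, -1.63 and -1.03 in CD31- B220- and between -0.45 and 0.23 elsewhere. All 3 differences were therefore lower on every CD31- B220- array than on any other array. They differed among the 4 groups by an exact permutation test over 92400 assignments of the arrays (p = 0.00818, 0.0104 and 0.00357, each 0.0104 after adjustment over the 3 pairs). Without CD31- B220- replicate 3 the adjusted p-values were 0.0184, 0.0184 and 0.00762. Relative to CD31+ B220+ the mean differences of the 3 pairs changed by -1.49, -1.06 and -1.68, relative to CD31+ B220- by -1.55, -1.15 and -1.31, and relative to HSC by -1.19, -1.40 and -1.76. A test with these group sizes could reach a p of 6.49e-05.

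**Figure D3:**
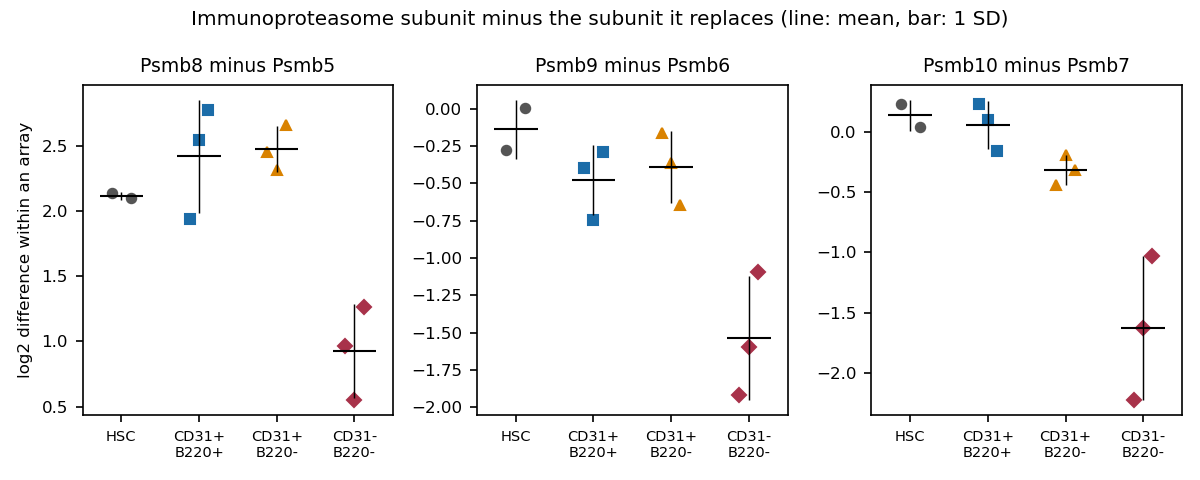
Log2 signal of each immunoproteasome subunit minus that of the subunit it replaces, within an array (vertical axis), by sorted group; points are arrays, lines group means and bars 1 SD (n = 2 for HSC, n = 3 for the others). The CD31- B220- points lie below all others in each panel, and the panels have different vertical ranges.

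The remaining constitutive beta subunits are structural. Psmb1, a non-catalytic member of the ring measured by 1 probe, read 10.13, 10.37 and 10.64 in CD31- B220-, 11.68, 11.80 and 12.23 in CD31+ B220-, 12.09, 12.30 and 12.30 in CD31+ B220+ and 11.49 and 11.50 in HSC. Its CD31- B220- arrays lay below all others, as those of the immunoproteasome genes did. Psmb1 was 3.60-fold higher in CD31+ B220+ (log2 difference 1.85 ± 0.19 SE, limma adjusted p = 1.18e-05), 2.88-fold higher in CD31+ B220- (1.52 ± 0.19, limma adjusted p = 0.000127) and 2.17-fold higher in HSC (limma adjusted p = 0.00124) than in CD31- B220-. These 3 calls were kept under all 21 alternatives. Psmb1 was also 1.66-fold higher in CD31+ B220+ than in HSC (limma adjusted p = 0.017), a call that ended without either HSC array and turned to -0.24 under median scaling. Psmb2, Psmb3 and Psmb4 were not called between any fractions. Psmb3 was 1.43-fold higher in CD31- B220- and 1.35-fold higher in CD31+ B220- than in HSC (limma adjusted p = 0.0215 and 0.0495), kept in 15 and 6 of 21 alternatives, and both turned negative under median scaling (-0.10 and -0.30).

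In the alpha ring 6 of 8 genes were tested. Psma7 separated CD31+ B220+ from the other fractions: it read 10.89, 10.96 and 11.11 there, 12.16, 12.24 and 12.32 in CD31+ B220-, 11.76, 11.93 and 11.99 in CD31- B220- and 11.29 and 11.50 in HSC. No fraction overlapped another. Psma7 was lower in CD31+ B220+ by 2.39-fold against CD31+ B220- (log2 difference -1.25 ± 0.15 SE, limma adjusted p = 7.4e-05) and by 1.88-fold against CD31- B220- (-0.91 ± 0.15, limma adjusted p = 0.000476), under all 21 alternatives. Against HSC it was 1.79-fold higher in CD31+ B220- and 1.41-fold higher in CD31- B220- (limma adjusted p = 0.00229 and 0.031), which median scaling changed to log2 differences of 0.06 and -0.21. Without CD31- B220- replicate 3 the second of these had an adjusted p of 0.0533. Psma5 was lower in CD31+ B220+ than in CD31- B220- (-0.50, limma adjusted p = 0.0147) and CD31+ B220- (-0.41, limma adjusted p = 0.0491), and Psma4 was lower than in CD31+ B220- (-0.53, limma adjusted p = 0.0308). These 3 calls were kept in 20, 6 and 15 of 21 alternatives, and that of Psma4 was lost without replicate 1 or 2 of CD31+ B220+ or any CD31+ B220- array. The mean of all Psma5 probes gave -0.18 in place of -0.41.

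Psma8, an alpha subunit known from testis, read 6.95 and 7.09 in HSC and 4.69 to 6.04 on the 9 arrays of the fractions. It was detected on both HSC arrays, on all 3 CD31+ B220- arrays and on 1 of 3 in each of the other fractions. Its log2 differences from HSC were -1.96 in CD31+ B220+, -1.30 in CD31+ B220- and -1.52 in CD31- B220- (limma adjusted p = 0.000211, 0.00418 and 0.00112). The call held in all 21 alternatives in each comparison, while without background correction the values shrank to -0.79, -0.55 and -0.63. Psma2 had a narrow range of group means, from 12.92 in HSC to 13.22 in CD31- B220-, with 12.90 and 12.93 on the HSC arrays and 12.97 to 13.34 on the others. It was called nowhere. Psma6 was detected on 2 arrays in all, 1 of CD31+ B220+ and 1 of CD31+ B220-, read 4.54 to 5.73 and was called nowhere. Psma1 and Psma3, like Psmb11, a thymus subunit, and Psmd3, a lid subunit, were detected on no array and were not tested; their unnormalised intensities ran from 97.2 to 199.8.

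The base ATPases thread the substrate into the core. All 6 were tested, and 2 of them (33.3%, against 22.5% of all genes) were lower in CD31+ B220+ than in CD31- B220-. Psmc3 read 10.89, 10.91 and 10.99 in CD31+ B220+ and 11.55, 11.60 and 11.63 in CD31- B220-, a 1.58-fold difference (limma adjusted p = 0.00406). Psmc2 read 12.12, 12.17 and 12.32 in CD31+ B220+ and 12.58, 12.87 and 12.94 in CD31- B220-, a 1.51-fold difference (limma adjusted p = 0.0086). The arrays of both genes did not overlap, and 25.6% of all genes likewise had every CD31+ B220+ array below every CD31- B220- array. Both calls were kept under all 21 alternatives. Psmc2 was also lower in CD31+ B220- than in CD31- B220- (1.37-fold, limma adjusted p = 0.0497), a call kept in 6 of 21. Psmc2 and Psmc3 were 1.51-fold and 1.78-fold higher in CD31- B220- than in HSC (limma adjusted p = 0.0142 and 0.00171), with log2 differences of 0.11 and -0.01 under median scaling. Psmc4 was 1.56-fold higher in CD31+ B220+ than in HSC (limma adjusted p = 0.0321) and -0.46 under median scaling. Psmc1 read 9.66 to 10.48 on all 11 arrays and, with Psmc5 and Psmc6, was called in no comparison.

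The non-ATPase subunits of the cap bind and prepare the substrate, and the chaperones grouped with them help to assemble the base. Of 14 genes 13 were tested. In CD31+ B220+ against CD31- B220- 9 were lower (69.2%, against 22.5% of all genes) and 0 higher (against 22.3%). Of these 13 differences 12 were negative, with a median of -0.67. In CD31+ B220- against CD31- B220- all 13 differences were negative, with a median of -0.34. Only 2 of them were called (15.4%, against 12.1% of all genes lower). Without CD31- B220- replicate 3 the called counts were 9 and 5, against 22.2% and 12.7% of all genes. The medians were then -0.86 and -0.56. In CD31- B220- against HSC 6 were higher (46.2%, against 20.6% of all genes) and 0 lower (against 29.5%). The median was 0.52, a direction that depends on the scaling as above.

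Psmd9, a chaperone of base assembly, had the widest range of group means of all members. It read 7.57, 8.21 and 8.58 in CD31- B220-, 6.62 and 6.87 in HSC, 5.31, 5.79 and 6.53 in CD31+ B220+ and 4.81, 4.95 and 5.51 in CD31+ B220-. Its probe was detected on all arrays of CD31- B220- and HSC, on 2 of 3 of CD31+ B220+ and on 1 of 3 of CD31+ B220-. Every CD31- B220- array was above all others. Psmd9 was 4.75-fold higher there than in CD31+ B220+ (limma adjusted p = 0.000191), 8.18-fold higher than in CD31+ B220- (limma adjusted p = 4.2e-05) and 2.60-fold higher than in HSC (limma adjusted p = 0.00954). The first 2 calls were kept under all 21 alternatives, with log2 differences of -1.19 and -1.48 without background correction in place of -2.25 and -3.03. The call against HSC ended under median scaling (-0.08) and without HSC replicate 1. A second Psmd9 probe had means of 7.64 in CD31- B220- and 5.16 to 5.69 in the other groups. Psmd9 was also called lower in CD31+ B220- than in HSC (log2 difference -1.65), under all 21 alternatives. The second probe gave -0.045 for that difference.

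Psmd6, a lid subunit, read 7.24, 7.75 and 7.78 in CD31- B220-, 6.47 to 6.91 in CD31+ B220-, 6.15 to 6.88 in CD31+ B220+ and 6.15 and 6.30 in HSC. Its CD31- B220- arrays were above all others, 2.15-fold higher than CD31+ B220+ (limma adjusted p = 0.00193), 1.85-fold higher than CD31+ B220- (limma adjusted p = 0.0129) and 2.58-fold higher than HSC (limma adjusted p = 0.00092). The other Psmd6 probe, detected on only 5 of the 11 arrays, had its lowest mean, 5.25, in CD31- B220-. All 3 calls ended when the probes were averaged (log2 differences -0.30, -0.44 and 0.47). Psmd2, a scaffold of the base, read 5.83, 6.70 and 6.92 in CD31- B220- and 4.84, 5.46 and 5.50 in CD31+ B220+, 2.33-fold apart (limma adjusted p = 0.00507). It read 5.84, 6.15 and 6.44 in CD31+ B220- and 5.77 and 5.83 in HSC. Psmd2 was 1.84-fold lower in CD31+ B220+ than in CD31+ B220- (limma adjusted p = 0.0363). It lost both calls when averaged with its other probe, which was detected on only 2 arrays. The call between the CD31+ fractions was kept in 11 of 21 alternatives.

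Of the others, Psmd1, the other scaffold, was 1.71-fold lower in CD31+ B220+ than in CD31- B220- (limma adjusted p = 0.00323). Psmd7, a lid subunit, was 1.60-fold lower (limma adjusted p = 0.0107), and both calls were kept under all 21 alternatives. The other Psmd7 probes gave log2 differences of -1.12 and 0.33 in this comparison. Psmd5, a base chaperone, Psmd11 and Psmd12, both lid subunits, and Psmd14, which removes ubiquitin chains, were lower by 1.70-, 1.87-, 1.55- and 1.53-fold (limma adjusted p = 0.0244, 0.0107, 0.0347 and 0.0329). The Psmd12 and Psmd14 arrays of these fractions overlapped. Both calls were kept in 15 of 21 alternatives and were lost with the replicate block, with the compared groups alone and without replicate 1 or 2 of either fraction. The Psmd5 call was also lost without CD31+ B220+ replicate 1 or 2 or CD31- B220- replicate 1. The Psmd5 and Psmd11 calls ended when their probes were averaged, which took in a probe of each gene that was detected on no array. Psmd7 was also lower in CD31+ B220+ than in HSC (-0.67) and CD31+ B220- (-0.54), kept in 18 and 12 of 21 alternatives, which the mean of its probes turned to 0.22 and 0.04. Psmd11 and Psmd12 were 1.91-fold and 1.67-fold lower in CD31+ B220+ than in HSC (limma adjusted p = 0.0159 and 0.0285). The ubiquitin receptor Psmd4 was 1.82-fold higher in CD31- B220- (limma adjusted p = 0.0012), 1.57-fold in CD31+ B220+ and 1.37-fold in CD31+ B220- than in HSC, where median scaling gave log2 differences of 0.27, -0.30 and -0.31; the last was kept in 9 of 21 alternatives. Psmd5 and Psmd13 were 2.24-fold and 1.69-fold higher in CD31- B220- than in HSC, and Psmd1 1.44-fold. Under median scaling these read -0.32, 0.11 and 0.01. Psmd13 was likewise 1.55-fold higher in CD31+ B220- than in HSC (-0.13 under median scaling). Psmd8, a lid subunit, and Psmd10, a base chaperone, were called nowhere.

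**Figure D4:**
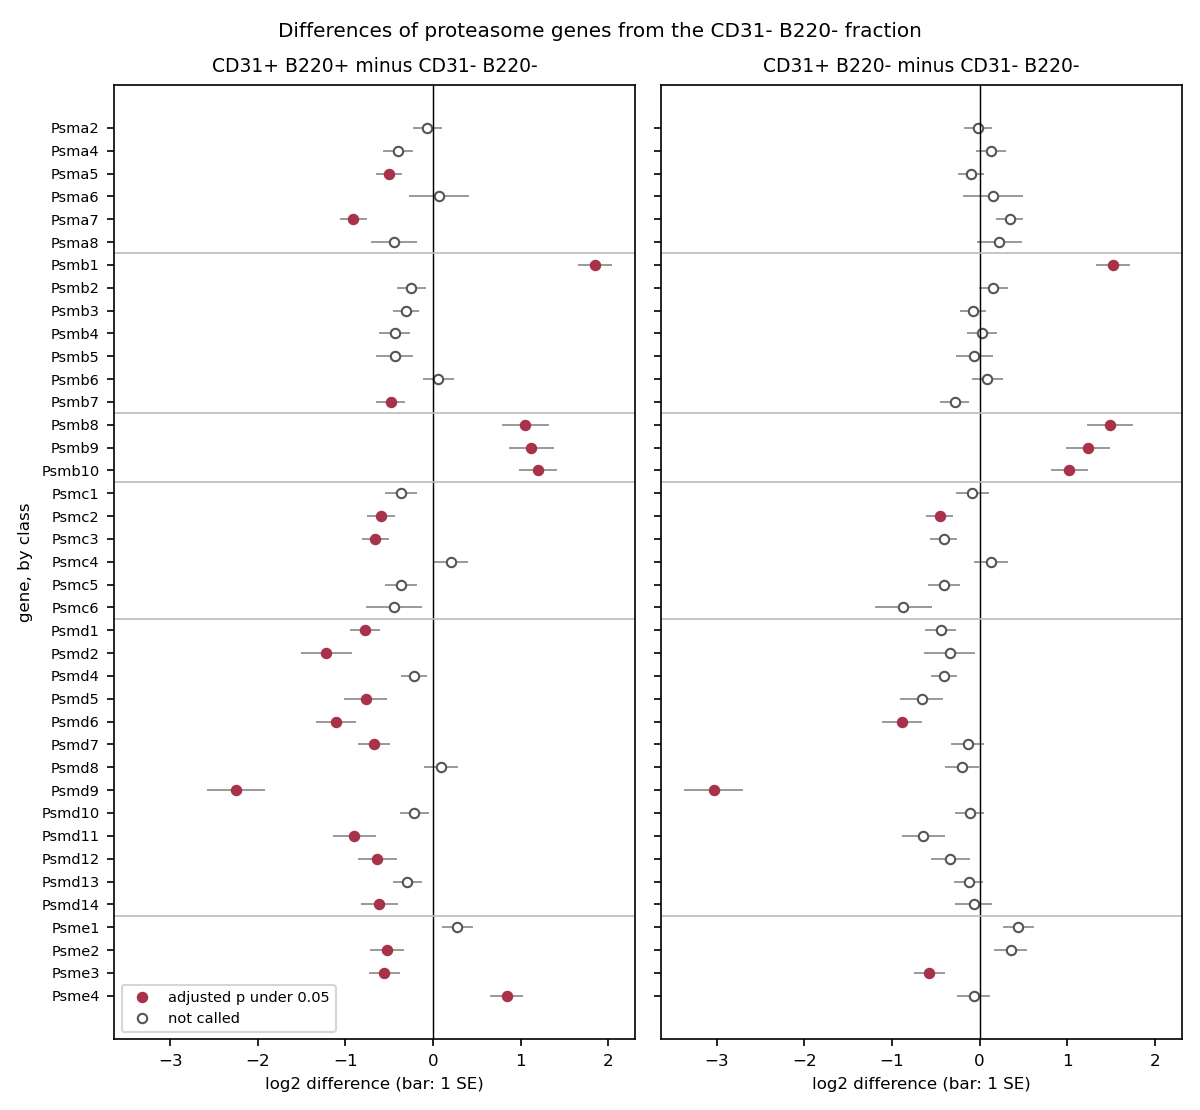
Log2 difference from CD31- B220- (horizontal axis, the same scale in both panels) for each tested proteasome gene (vertical axis, by class), for CD31+ B220+ on the left and CD31+ B220- on the right; bars are 1 SE from the limma fit of all 11 arrays, and filled points have an adjusted p under 0.05. Psmb1 and the immunoproteasome genes lie to the right of 0 in both panels. In the left panel 9 of 13 non-ATPase genes (69.2%) are called to the left of 0, against 22.5% of all genes.

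The activators differed from one another in direction. Psme1, whose product pairs with that of Psme2 in an interferon-inducible ring that opens the core, read 12.63 and 12.80 in HSC and 11.39 to 12.15 in the fractions. Psme2 ran the other way, at 7.29 and 7.49 in HSC, 8.11, 8.35 and 8.56 in CD31+ B220+, 9.02, 9.14 and 9.50 in CD31+ B220- and 8.71, 8.86 and 9.02 in CD31- B220-. Both HSC arrays were thus the highest for Psme1 and the lowest for Psme2. The log2 differences from HSC were -0.81, -0.65 and -1.09 for Psme1 (limma adjusted p = 0.00587, 0.0206 and 0.000769) and 0.95, 1.83 and 1.47 for Psme2 (limma adjusted p = 0.00352, 4.59e-05 and 0.000149), in the order CD31+ B220+, CD31+ B220-, CD31- B220-. Under median scaling the Psme2 values became -0.70, 0.37 and 0.03. The Psme1 call in CD31- B220- was kept under all 21 alternatives. It was lost in CD31+ B220+ without HSC replicate 2 (adjusted p = 0.0536), and in CD31+ B220- without either HSC array or CD31+ B220- replicate 3. Psme2 was also 1.84-fold lower in CD31+ B220+ than in CD31+ B220- (limma adjusted p = 0.00377, under all 21 alternatives) and 1.44-fold lower than in CD31- B220- (limma adjusted p = 0.0421, 0.0732 without CD31- B220- replicate 3).

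Psme4, the activator linked to histone turnover, read 11.49, 11.83 and 11.88 in CD31+ B220+ and 10.56 to 11.10 on the other 8 arrays. It was 2.18-fold higher in CD31+ B220+ than in HSC (limma adjusted p = 0.00118), 1.87-fold higher than in CD31+ B220- (limma adjusted p = 0.00319) and 1.79-fold higher than in CD31- B220- (limma adjusted p = 0.00347). The middle call was kept under all 21 alternatives, and median scaling ended the first (-0.06) and the last. Psme3, a nuclear activator, read 10.99, 11.13 and 11.16 in CD31- B220- and 10.03 to 10.80 on the other arrays. CD31- B220- was 1.86-fold above HSC (limma adjusted p = 0.00303, log2 difference -0.08 under median scaling), 1.47-fold above CD31+ B220+ (limma adjusted p = 0.0245) and 1.49-fold above CD31+ B220- (limma adjusted p = 0.0324), the last 2 kept in 17 and 16 of 21. Of the 2 partner proteins, Psmc3ip was 2.45-fold lower in CD31+ B220+ than in CD31- B220- (limma adjusted p = 0.0011).

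MHC class I presentation is the route that immunoproteasome peptides take. Of 14 listed genes 13 were tested. In CD31+ B220+ 8 were higher (61.5%, against 22.3% of all genes) and 0 lower than in CD31- B220-, with a median of 0.80. In CD31+ B220- 4 were higher (30.8%, against 16%) and 0 lower, with a median of 0.45. These were 8 and 5 higher without CD31- B220- replicate 3. Under median scaling the first count was 5 higher and 1 lower. In CD31- B220- against HSC 7 were lower (53.8%, against 29.5%) and 2 higher (15.4%, against 20.6%). The higher ones were Calr, a chaperone (log2 difference 0.92), and Tapbp, which links class I molecules to the transporter (0.86), and both turned negative under median scaling (-0.45 and -0.64). The lower count was 4 without CD31- B220- replicate 1. Nlrc5, the transactivator of class I genes, read 7.29, 7.81 and 7.82 in CD31- B220-, 8.51, 8.54 and 8.70 in CD31+ B220-, 9.31, 9.46 and 9.60 in CD31+ B220+ and 9.03 and 9.11 in HSC. No 2 of the fractions overlapped, and CD31- B220- was lowest, by 3.51-fold against CD31+ B220+ and 1.91-fold against CD31+ B220- (limma adjusted p = 0.00246 for the latter). Tap1, which carries peptides into the endoplasmic reticulum and lies between Psmb9 and Psmb8, read 7.25, 7.76 and 8.10 in CD31- B220- and 8.42 to 9.21 elsewhere, and was 2.03-fold higher in CD31+ B220- (limma adjusted p = 0.00645). H2-M3 was 3.25-fold higher in CD31+ B220+ and 1.89-fold higher in CD31+ B220- than in CD31- B220-. H2-K1 was 2.86-fold higher in CD31+ B220+ than in CD31- B220-, and in HSC higher by 6.79-fold (limma adjusted p = 2.35e-06); the mean of its probes gave a log2 difference of -1.39 against HSC in place of -2.76. Some class I heavy chains, such as H2-K1, have close copies, so which gene the H2-K1 probes report is uncertain. Which gene the H2-M3 probe reports was not checked either.

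Among interferon signalling genes (12 of 14 tested), 4 were higher (33.3%, against 22.3% of all genes) and 2 lower (16.7%, against 22.5%) in CD31+ B220+ than in CD31- B220-. In CD31+ B220- 2 were higher (16.7%, against 16%) and 0 lower; without CD31- B220- replicate 3, 4 were higher, and leaving out any other array except CD31+ B220- replicate 1 gave 1. Irf1, a transcription factor induced by interferon, read 9.93, 10.55 and 11.14 in CD31- B220-, 11.84, 12.13 and 12.13 in CD31+ B220+, 10.68, 11.25 and 11.29 in CD31+ B220- and 12.23 and 12.30 in HSC. It was 2.82-fold higher in CD31+ B220+ than in CD31- B220- (limma adjusted p = 0.00107). Its arrays overlapped between the 2 B220- fractions. Irf8, a factor of B cells, dendritic cells and macrophages, read 8.61, 8.66 and 9.50 in CD31- B220-, 10.03 to 10.54 in CD31+ B220-, 10.55 to 10.97 in CD31+ B220+ and 6.88 and 6.94 in HSC. It was 3.58-fold and 2.63-fold higher in the CD31+ fractions than in CD31- B220- (limma adjusted p = 8.88e-05 and 0.00138). HSC had the lowest Irf8. The immunoproteasome genes of HSC were not called different from those of the CD31+ fractions, and any link to Irf8 was not tested. Ifngr1, a chain of the interferon gamma receptor, was 2.26-fold lower in CD31+ B220+ than in CD31- B220- (limma adjusted p = 0.00182).

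**Figure D5:**
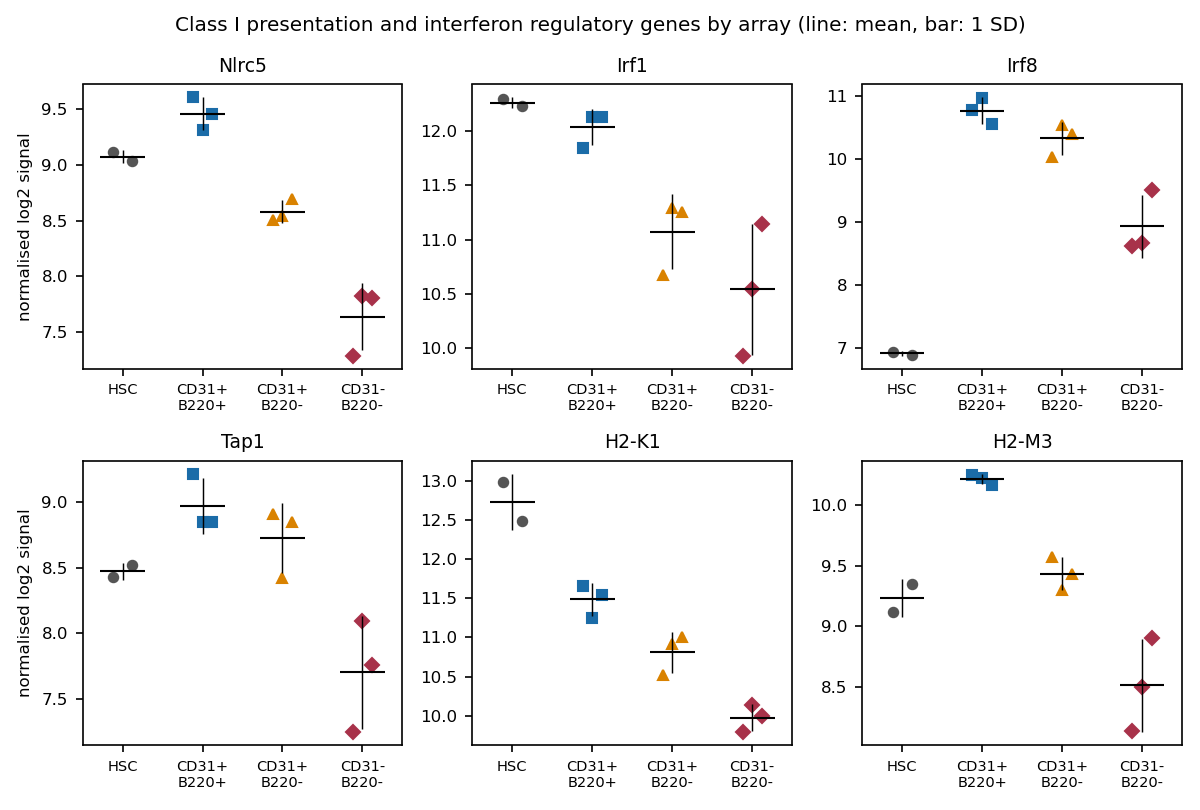
Normalised log2 signal (vertical axis, a separate range in each panel) of 6 class I presentation and interferon regulatory genes by sorted group, with 1 point per array, a line at the group mean and a bar of 1 SD (n = 2 for HSC, n = 3 for the others). Nlrc5, Tap1, H2-K1 and H2-M3 are lowest on the CD31- B220- arrays, whereas Irf8 is lowest in HSC.

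Of the assembly list (4 of 6 tested), 2 were lower (50%, against 18.5% and 22.5% of all genes) and 0 higher in CD31+ B220+ than in either other fraction; against CD31+ B220- it was 1 without CD31+ B220+ replicate 1. Psmg1, a chaperone of the alpha ring, read 7.59, 7.77 and 7.80 in CD31+ B220+, 8.79, 9.04 and 9.05 in CD31+ B220-, 8.53, 8.61 and 8.79 in CD31- B220- and 9.28 and 9.34 in HSC. CD31+ B220+ was lowest on all arrays, by 3.02-fold against HSC, 2.36-fold against CD31+ B220- and 1.90-fold against CD31- B220- (limma adjusted p = 2.04e-05, 9.54e-05 and 0.000501). Its partner Psmg2 was 1.99-fold lower than in CD31- B220- (limma adjusted p = 0.000596). Of the transcription factors of proteasome genes (5 of 6 tested), 0 were higher in CD31+ B220+ than in CD31- B220- and 1 was lower (20%, against 22.5% of all genes), Mafg, by 2.97-fold (limma adjusted p = 0.00015). Nfe2l1, which raises proteasome genes when activity is short, was lower than in HSC in all 3 fractions, by 1.65-, 1.84- and 2.32-fold, and was not called between fractions. Without HSC replicate 1 the first 2 of these calls were lost.

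Of the proteasome-associated proteins (8 of 16 tested), 1 was higher (12.5%, against 22.3% of all genes) and 2 lower (25%, against 22.5%) in CD31+ B220+ than in CD31- B220-. The lower ones were the deubiquitinases Usp14 (3.02-fold, limma adjusted p = 0.0055) and Uchl5 (1.77-fold, limma adjusted p = 0.00557), and the higher one the shuttle Ubqln1 (1.51-fold, limma adjusted p = 0.00844, lost under median scaling). Of the ubiquitin supply list 4 of 9 genes were tested, and 1 (25%, against 22.3%) was higher in CD31+ B220+ than in CD31- B220-, the activating enzyme Uba6 (1.83-fold, limma adjusted p = 0.0189, lost without replicate 1 or 2 of either fraction). Nploc4, a cofactor of the segregase Vcp, was 3.75-fold higher in CD31- B220- than in HSC (limma adjusted p = 2.94e-05), a call lost under median scaling.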

How the data were processed

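Gene expression was measured on 11 Illumina bead arrays, grouped by sample title (HSC n = 2, each AGE-positive fraction n = 3). The authors deposited, per probe and array, a linear bead intensity from which no background had been subtracted, and a fraction that rose with the signal and was taken for the detection p-value's complement. The processed values they deposited were quantile-normalised on a scale that matched log2, with the base of the logarithm not given in the sources used here. The submitters' processing notes name lumi 1.1.0, with no role stated.

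From the intensities, background was corrected with limma's neqc (limma 3.58.1 under R 4.3.3; files were read with data.table, release 1.17.8), that is normexp from the detection p-values, quantile normalization, an offset of 16 and log2. Of 45281 probes, 34885 carried 1 gene symbol, 18 several and 10378 none. Per gene the probe of highest mean signal over the 11 arrays was used, and 11367 of 19057 genes were tested (detection p under 0.05 on at least 2 arrays). All arrays entered 1 linear model with a mean per group, since HSC had only 2 arrays. The 6 comparisons used limma's 2-sided moderated test and the 4 groups its F-test, adjusted by Benjamini-Hochberg over all genes tested. The procedure was tested on simulated data. Within-array differences of subunit pairs were tested by exact permutation.

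The genes, the 6 pathway lists, the 9 marker lists and the tests were chosen with earlier results of these data known. The pathway lists held assembly, associated, transcription, ubiquitin supply, class I and interferon genes; 52 of their 65 entries and 64 of the 72 marker entries had a named probe. Values on each array are given for the immunoproteasome genes, the subunits they replace, Psme1, Psme2, the 6 other tested members with the widest and the 3 with the narrowest range of group means. In each comparison the 3 largest called differences per direction are named, with the other called members; array values of Psmc2, Psmc3, Psme3, Psme4 and of the list genes were added after their values were seen. The alternatives were median scaling, other background corrections, an offset of 50, the deposited values, no or a stricter detection filter, the mean of all probes, the replicate number as a block, the compared groups alone, and leaving out each array. Precision is limited by how many arrays each group has.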

Additional observations from a re-analysis of the deposited data

How the results depend on the processing

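The calls of Psmb8, Psmb9, Psmb10 and Psmb1 between CD31- B220- and the other fractions were kept in each of the 21 alternatives. Over all 161 called differences of named genes, 2973 of 3379 values kept direction and call, 373 kept direction only and 33 changed sign. Of the 29 that were not called, 14 of 609 values passed the threshold and 5 changed sign.

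Median scaling moved 6 counts by over 1.5 times, all in comparisons with the brighter HSC arrays. Between fractions it raised the members lower in CD31+ B220+ than in CD31- B220- from 16 to 24, with 23.4% of all genes lower. The median of the proteasome genes there went from -0.44 to -0.66, and that of all genes from 0.02 to -0.06. The members called against HSC became 0 higher and 32 lower in CD31+ B220+, 0 and 22 in CD31+ B220-, and 0 and 15 in CD31- B220-. Of all genes, 6.66%, 7.77% and 9.39% were then higher and 67.9%, 65.5% and 62.3% lower. The share of all calls that were higher fell from 40.6%, 41.2% and 41.1% to 8.93%, 10.6% and 13.1%; for CD31+ B220+ against CD31+ B220- it was 36.3% in place of 47.4%. Median scaling turned these log2 differences from HSC negative. In CD31+ B220+ they were Psmb1 -0.24, Psmb10 -0.84, Psmb7 -0.81, Psmb8 -0.98, Psmc4 -0.46, Psmd4 -0.30, Psme2 -0.70, Psme4 -0.057, Ifngr2 -0.38, Tapbp -0.31, H2-M3 -0.46, Psmg3 -0.68 and Nploc4 -0.23. In CD31+ B220- they were Psmb3 -0.30, Psmb5 -1.21, Psmd13 -0.13, Psmd4 -0.31, Ifngr1 -0.42, Tyk2 -0.55, Tapbp -0.31, Psmg3 -0.51 and Nploc4 -0.0067. In CD31- B220- they were Psma7 -0.21, Psmb3 -0.10, Psmb5 -1.05, Psmc3 -0.012, Psmd5 -0.32, Psmd6 -0.025, Psmd9 -0.079, Psme3 -0.078, Calr -0.45, Tapbp -0.64, Psmg3 -0.0061 and Psmg2 -0.54. The mean of all probes turned Psmd7 in CD31+ B220+ to 0.22 against HSC and 0.039 against CD31+ B220-, Maff in CD31+ B220- against HSC to 0.22 and H2-K1 in CD31+ B220+ against HSC to 0.38. Of 54 comparisons of a called proteasome difference with another detected probe of the gene, 44 had the same sign and 10 the opposite. A difference with several other probes counts once for each probe.

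Without background correction 8 members were lower in CD31+ B220+ than in HSC (against 27.6% of all genes). In CD31+ B220- 8 were higher than in HSC (against 18.6%) and 9 lower than in CD31- B220- (against 13.5%). An offset of 50 gave 8 for each of the last 2 (against 18.2% and 13% of all genes). Deposited values gave 3 higher in CD31+ B220- than in HSC (against 16.8%), and the compared groups alone gave 3 (against 18.1%). The latter also gave 3 lower in CD31+ B220+ than in CD31+ B220- (against 17.4%). The cause of these moves was not tested.

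Leaving out each array gave 3 to 5 members higher and 2 to 6 lower in CD31+ B220+ against HSC. It gave 2 to 6 higher in CD31+ B220- and 6 to 14 higher in CD31- B220- against HSC. The matching shares of all genes were 12.9% to 19.4% and 18.3% to 28%, then 11.7% to 18.6%, then 15.3% to 20.9%. Against CD31+ B220-, CD31+ B220+ gave 1 to 2 higher and 2 to 8 lower; against CD31- B220- it gave 10 to 16 lower, with 10 without CD31+ B220+ replicate 1 or CD31- B220- replicate 2. CD31+ B220- against CD31- B220- gave 1 to 7 lower, with 1 without CD31+ B220- replicate 3 or CD31- B220- replicate 1. The smallest, 2 lower in CD31+ B220+ than in CD31+ B220-, came without CD31+ B220+ replicate 2 or CD31+ B220- replicate 1. Of all genes, 13.3% to 17.4% were higher and 15.3% to 19.4% lower in CD31+ B220+ than in CD31+ B220-. Against CD31- B220-, 20% to 23.1% were lower in CD31+ B220+ and 9.83% to 12.7% in CD31+ B220-. The pair tests had adjusted p from 0.00333 to 0.0214.

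Same-numbered arrays of different groups did not pair (15 correlations of deviations from -0.075 to 0.18, 1 above 0.1; 4 arrays correlated best with their own number). With the replicate number as a block the counts higher and lower against HSC were 5 and 4, 5 and 3, and 11 and 6 in the order above. They were 1 and 5 in CD31+ B220+ against CD31+ B220-, and 5 and 12 against CD31- B220-. In CD31+ B220- against CD31- B220- they were 4 and 3. In the same order, the shares of all genes were 17.5% and 25.7%, 16.2% and 23.7%, 19.5% and 28.3%, 16.2% and 17.9%, 22.1% and 22%, and 15.4% and 11.5%. The F-test called 22 members. Psma6, Psma8, Psmc6, Psmd2 and Psmd9 were detected on 2, 7, 5, 9 and 8 of the 11 arrays, which limits their values.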
